A study of Homo sapiens with 16 samples.

Results

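The genes that carry the type I interferon (IFN) signal from the cell surface to DNA were examined for acetylation of histone H3 at lysine 27 (H3K27ac), a mark of active promoters and enhancers. The 6 genes were the receptor chains IFNAR1 and IFNAR2, the kinases JAK1 and TYK2, and STAT2 and IRF9. Each region of the table that was assigned to any of these genes and lay within 50000 bp of its transcription start site (TSS) was taken, which gave 52 of 151654 regions. IFNAR1 had 13, IFNAR2 11, JAK1 18, TYK2 7, STAT2 1 and IRF9 2. Each region is a window of 1000 bp centred on a site of open chromatin, and 35 of the 52 overlapped another window of the same set, so that they form 31 separate stretches of DNA and neighbouring windows share tags.

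When type I IFN binds IFNAR1 and IFNAR2, the kinases TYK2 and JAK1 on the cytoplasmic tails of the receptor phosphorylate STAT proteins, and STAT2 and IRF9 are subunits of the complex ISGF3 that then forms. ISGF3 enters the nucleus and binds the interferon-stimulated response element (ISRE) of interferon-stimulated genes, while STAT dimers bind the gamma-activated sequence (GAS). USP18 is itself induced by IFN and dampens signaling at the receptor, where it binds IFNAR2 and STAT2.

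THP-1, a human monocytic leukemia cell line, was used in the wild-type (WT) form, which carried Cas9 and is labelled Cas9 only, and as USP18-/- cells made by CRISPR. Both were left untreated or were given IFNα at 1000 U/ml for 6 h. Each of the 4 groups had 2 H3K27ac libraries, called replicates by the labels. Edited cells were sorted singly into clones, and the sources used here do not say which clone was taken for ChIP-seq, so the effect of USP18 loss and differences between clones cannot be told apart. These are bulk samples, in which fewer cells with the mark and less of it per cell cannot be told apart either. The 8 input libraries of the series were not used here.

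Summed over all windows, the tag counts of a library came to between 9046141 and 12935454. Of all windows 31.8% overlapped another, so tags in overlaps were counted more than once. Levels are given as counts per 1000000 counted tags (CPM) per window of 1000 bp, scaled by edgeR's TMM factors, and since all windows have equal length they can be compared between genes. All p-values are from edgeR's quasi-likelihood test, Benjamini-Hochberg adjusted over the 123276 regions tested, and all 52 regions passed the filter on low counts. A region was called when its adjusted p was below 0.05 and it differed by more than 2-fold, and is said to have passed the test when its adjusted p was below 0.05 whatever the size. With scaling by the sum of counts instead, the median log2 fold change of all regions is -0.16 for USP18-/- against WT untreated, -0.27 for the same with IFNα and -0.14 for IFNα in USP18-/- cells, beside -0.02, 0.00 and -0.01 with TMM, so changes are relative to that choice. At the USP18 TSS window itself the 2 WT libraries had 7.85 and 7.62 CPM, WT with IFNα 18.0 and 15.0, USP18-/- 8.20 and 8.47, and USP18-/- with IFNα 49.2 and 41.7. The mark at a promoter does not read the edited sequence, so this is no check of the knockout. All 8 monocytic marker genes had a TSS window, with the lowest group mean at CSF1R (1.73 CPM) and the highest at SPI1 (130 CPM), while none of the T cell, liver and epithelial markers had any; of the 3 B cell markers only CD79A had a window, with group means up to 7.12 CPM. The summed level of the monocytic markers was 190 CPM in WT, 195 in WT with IFNα, 344 in USP18-/- and 363 in USP18-/- with IFNα. Its members did not move alike: between untreated WT and USP18-/- cells FCER1G went from 29.7 to 92.6 CPM, TYROBP from 22.6 to 61.3 and SPI1 from 66.9 to 99.1, whereas the group means of ITGAM lay between 8.45 and 11.7 CPM, with the lowest in USP18-/- cells with IFNα, and LYZ, at 11.8 and 13.6, had 11.2 CPM in WT and 5.14 in USP18-/- cells with IFNα. The part of these markers in the differences between genotypes was not tested.

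The letters under these windows were read from hg38. The core of an ISRE, spelled GAAA, any 2 bases and GAAA and searched on both strands, was in 17.2% of all windows and in 8 of the 52, but not in the windows at the starts of IRF9, STAT2 or the upstream start of JAK1, where acetylation rose after IFNα. Another form, spelled GAA, any 2 bases and GAAACT, was looked for after the IRF9 and STAT2 windows had been read. It occurred in 2.95% of all windows, in 1.41% of those within 1 kb of a TSS and in 5 of the 52, at 3 places. Since the IRF9 and STAT2 windows were read first, these shares cannot test its presence there. The 3 places are shown because the same spacing lies at the starts of both ISGF3 genes, with the match in capitals.
IRF9, chr14:24161220-24161249, plus strand, across the annotated start of the gene: cctggaggaGAACTGAAACTtagggtgggg
STAT2, chr12:56360458-56360487, plus strand, upstream of the gene, which lies on the minus strand: tgagccccgGAACCGAAACTagcttgagga
JAK1, chr1:64917939-64917968, minus strand, in an intron: cctgtgtctGAACAGAAACTctgggtcaag
The GAS letters TTCNNNGAA were in 26.2% of all windows and in 17 of the 52, at 14 places. They are shown for the windows at the starts of IRF9, IFNAR2 and IFNAR1, again with the match in capitals. The IRF9 windows hold 3 of them and both receptor genes 1 each, which follow in this order.
IRF9, chr14:24160869-24160898, plus strand: cttttttcctTTCATAGAAtttgactggta
IRF9, chr14:24161192-24161221, plus strand: accacgtgatTTCTGGGAAaaggccctccc
IRF9, chr14:24161548-24161577, plus strand: tgctggattgTTCAAGGAAgaaggctcctg
IFNAR2, chr21:33230286-33230315, plus strand: cctgcagcggTTCCCGGAAtcccctccggt
IFNAR1, chr21:33325412-33325441, plus strand: gtttgattctTTCCGGGAAagtaccgcggc
The first 2 IRF9 matches lie in a sequence that GENCODE release 44 annotates as untranslated in an overlapping transcript, and the third is intronic, as are those of IFNAR2 and IFNAR1. A match is a description of letters and says nothing of binding.

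In WT cells a rise of H3K27ac with IFNα passed the test at IRF9 and, among the 52 regions, nowhere else. IRF9 is the DNA-binding subunit of ISGF3. Its window nearest the TSS (20 bp upstream, chr14:24160693-24161693) had 14.4 and 12.6 CPM in untreated WT and 43.0 and 42.6 CPM in WT with IFNα. In USP18-/- cells the values were 25.4 and 20.9 CPM untreated and 106 and 91.3 CPM with IFNα. The 4 groups did not overlap, and they ran from WT through untreated USP18-/- and IFNα-treated WT to IFNα-treated USP18-/- cells.

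The rise at IRF9 was 3.18-fold in WT cells (log2 fold change 1.67, SE 0.12, adjusted p = 5.19e-19, edgeR) and 4.24-fold in USP18-/- cells (2.08, SE 0.11, adjusted p = 2.47e-30). The difference of these log2 changes, 0.42 (SE 0.17), did not pass the test (adjusted p = 0.0976). With each library left out in turn it ranged from 0.27 to 0.53. Untreated USP18-/- cells already had 1.72 times the WT level (log2 0.79, SE 0.13, adjusted p = 5.67e-07), and with IFNα the ratio was 2.30 (log2 1.20, SE 0.10, adjusted p = 4.42e-18). The overlapping window 413 bp downstream, annotated as the end of the neighbouring gene RNF31, ran in parallel. Its log2 changes after IFNα were 1.61 in WT and 1.97 in USP18-/- cells. Their difference of 0.36 (SE 0.16) did not pass the test either (adjusted p = 0.146). Tags that belong to IRF9 and to the end of RNF31 cannot be separated there. Of 15 tested windows of other genes within 50 kb of IRF9, none passed with IFNα in WT cells (0.653% of all regions higher and 0.153% lower), while 7 rose (13.0%) and 4 fell (11.2%) in USP18-/- cells at an adjusted p below 0.05. Between untreated genotypes, 10 of these 15 were higher (16.9% of all regions) and 0 lower (16.8%) in USP18-/- cells. With IFNα 11 were higher (21.3%) and 1 lower (19.4%). Of all regions within 1 kb of a TSS, 41.5% were higher untreated and 45.2% with IFNα. The higher level in USP18-/- cells was thus not particular to IRF9.

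STAT2 is the ISGF3 subunit that carries the transactivation domain. Its single window (32 bp upstream of the TSS, chr12:56359785-56360785) had 17.2 and 16.1 CPM in untreated WT, 21.7 and 19.9 CPM in WT with IFNα, and 18.2 and 17.3 CPM in untreated USP18-/- cells. With IFNα, USP18-/- cells reached 54.0 and 48.1 CPM. The treated USP18-/- libraries stood far above the other 6, which lay between 16.1 and 21.7 CPM.

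In WT cells the change at STAT2 was 1.25-fold (log2 0.33, SE 0.13) and did not pass the test (adjusted p = 0.385). In USP18-/- cells it was 2.87-fold (log2 1.52, SE 0.12, adjusted p = 1.72e-19), and the difference between genotypes passed its own test (log2 1.20, SE 0.18, adjusted p = 2.09e-07). Untreated cells of both genotypes differed by 0.10 (SE 0.14, adjusted p = 0.640), so that the genotypes differed at STAT2 after IFNα (log2 1.29, SE 0.12, adjusted p = 2.08e-16) and not detectably before it. Tested regions within 5 Mb of STAT2, its own excluded, had medians of -0.46 untreated and -0.44 with IFNα for USP18-/- against WT. The STAT2 window stood 0.56 above this median untreated and 1.74 above it with IFNα. Of 10 tested windows of other genes within 50 kb of the STAT2 window, none rose (13.0% of all regions) and 1 fell (11.2%) with IFNα in USP18-/- cells at an adjusted p below 0.05.

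**Figure D1:**
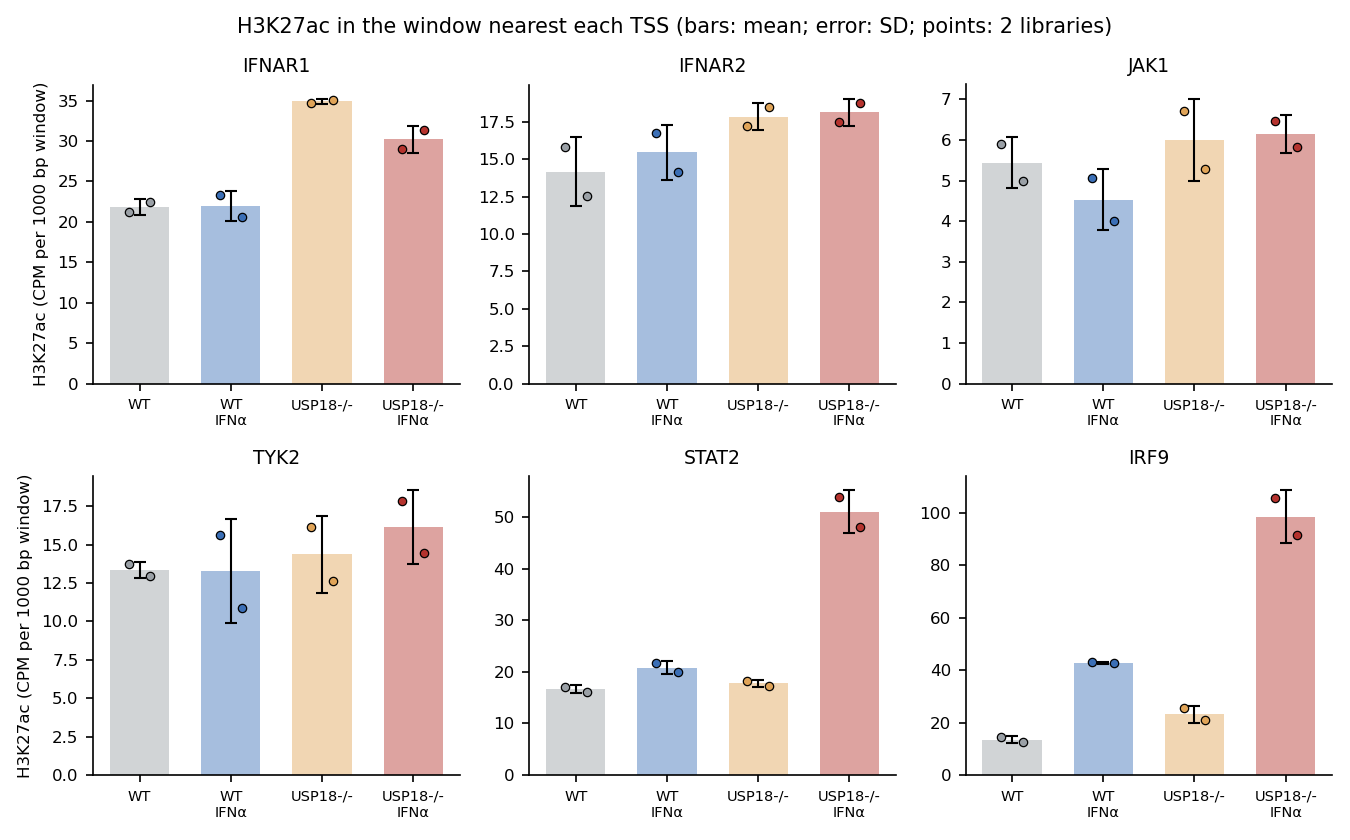
H3K27ac level in CPM per 1000 bp window at the window nearest the TSS of each gene, in the 4 groups; bars are means, error bars the SD and points the 2 libraries of a group, and each panel has its own scale from 0. IRF9 rises with IFNα in both genotypes, STAT2 stands at 51.0 CPM in treated USP18-/- cells against 16.6 to 20.8 CPM elsewhere, and IFNAR1 is higher in USP18-/- cells whether treated or not.

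Over the 52 regions, IFNα in WT cells raised 2 by more than 2-fold, both at IRF9, against 0.344% of all tested regions, and lowered 0, against 0.0381%. At an adjusted p below 0.05 and any size of change the counts were again 2 (0.653% of all regions) and 0 (0.153%). The 52 regions had a median log2 change of -0.00, and all tested regions -0.01. In USP18-/- cells IFNα raised 4 by more than 2-fold (background 7.14%) and lowered 0 (4.28%): the IRF9 pair, STAT2 and the upstream start of JAK1. At any size 5 rose (13.0% of all regions) and 8 fell (11.2%), and the median log2 change of the 52 was -0.26 against -0.01 for all regions tested. The difference of the IFNα effects was above 2-fold in 2 regions (4.66%) and below in 0 (2.51%), and at any size 3 passed as higher (6.84%) and 6 as lower (5.22%).

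**Figure D2:**
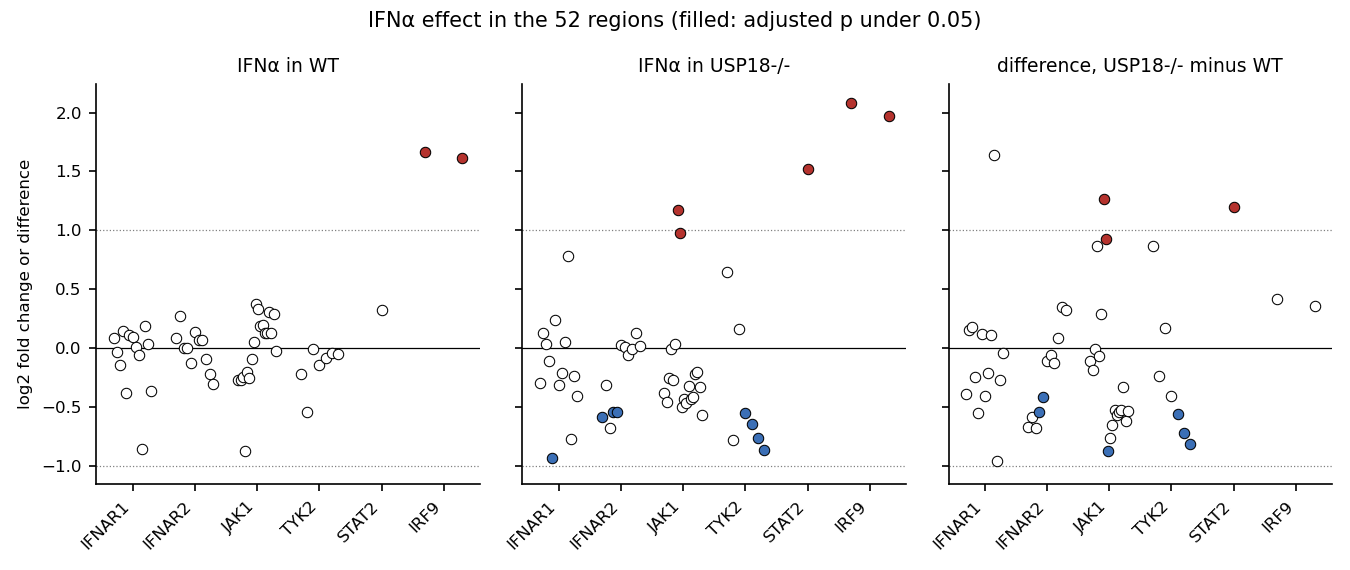
Log2 fold change with IFNα in WT and in USP18-/- cells, and the difference between them, for each of the 52 regions, grouped by gene and ordered from upstream to downstream within a gene; filled points have an adjusted p below 0.05 and dotted lines mark 2-fold. In WT cells the filled points are the 2 IRF9 windows, while in USP18-/- cells STAT2 and 2 JAK1 windows join them and windows of TYK2, IFNAR2 and IFNAR1 lie below 0.

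JAK1, the kinase held by IFNAR2, has an upstream and a downstream start, and they differed in response. The window 441 bp inside the upstream start (chr1:65066805-65067805, first intron) had 9.40 and 8.80 CPM in untreated WT, 8.82 and 8.21 CPM in WT with IFNα, and 8.12 and 9.24 CPM in untreated USP18-/- cells. In USP18-/- cells with IFNα it had 16.6 and 22.6 CPM. Both of these libraries were above the other 6, although they differed from each other more than those of any other group.

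At this upstream start IFNα gave a 2.26-fold rise in USP18-/- cells (log2 1.18, SE 0.17, adjusted p = 6.75e-09) and a log2 change of -0.09 (SE 0.19, adjusted p = 0.939) in WT cells. The difference was 1.27 (SE 0.25, adjusted p = 7.43e-05). The overlapping window 882 bp inside the start rose by 0.98 (SE 0.18, adjusted p = 8.30e-06), with a difference of 0.93 (SE 0.27, adjusted p = 0.0111) that no longer passed without WT untreated replicate 2 (adjusted p = 0.0589), WT IFN replicate 1 (0.0822) or USP18-/- untreated replicate 1 (0.0755). At the downstream start (36 bp upstream of it, chr1:64966105-64967105) the level was 5.89 and 4.99 CPM in WT, 5.05 and 4.00 in WT with IFNα, 6.72 and 5.29 in USP18-/- and 6.48 and 5.82 in USP18-/- with IFNα. The treated USP18-/- libraries lay above those of treated WT (log2 0.44, SE 0.23, adjusted p = 0.127), while the groups of the other comparisons overlapped. None of the comparisons passed: the change with IFNα in USP18-/- cells was 0.03 (SE 0.22, adjusted p = 0.953).

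**Figure D3:**
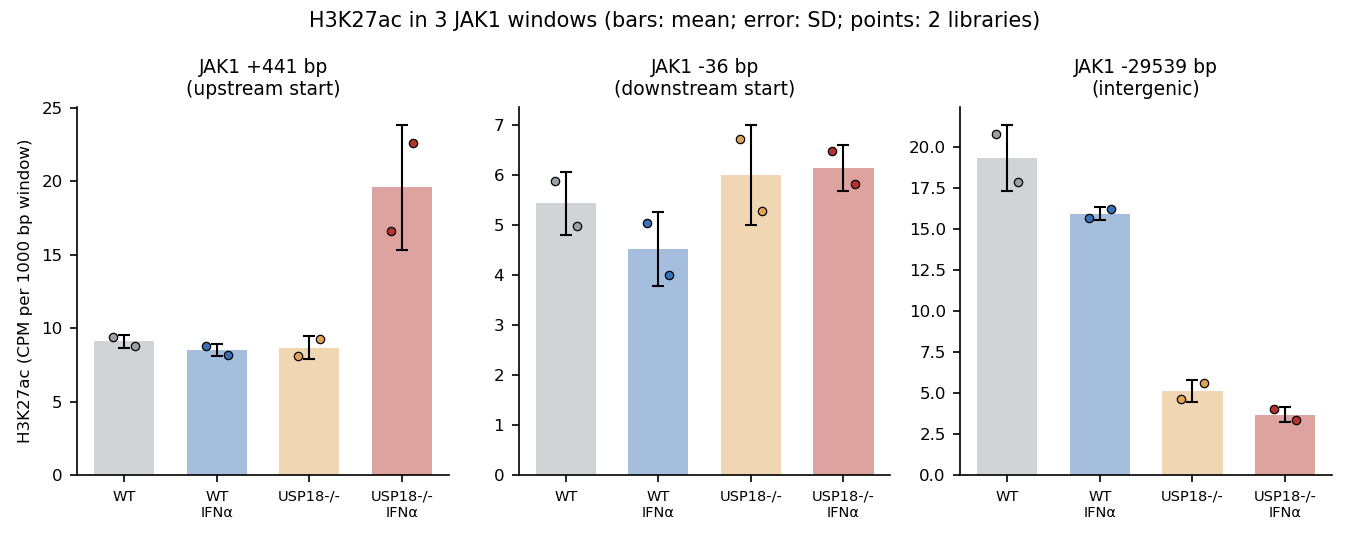
H3K27ac level in CPM in 3 JAK1 windows by group, drawn as means with SD and the 2 libraries of each group, each panel with its own scale from 0. The upstream start is raised in treated USP18-/- cells, the downstream start shows no difference that passed the test, and the intergenic window 29539 bp upstream is low in USP18-/- cells with and without IFNα.

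TYK2, the kinase held by IFNAR1, went the other way inside its intron 3, where its highest acetylation lay. The window 7328 bp downstream of the TSS (chr19:10372744-10373744) had 27.1 and 27.2 CPM in WT, 23.2 and 29.4 CPM in WT with IFNα, and 30.4 and 33.3 CPM in USP18-/-. With IFNα, USP18-/- cells had 19.8 and 17.6 CPM, below all the other libraries. The log2 change in USP18-/- cells was -0.77 (SE 0.13, adjusted p = 5.13e-07), against -0.05 (SE 0.12, adjusted p = 0.956) in WT cells.

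The difference of -0.72 (SE 0.18) passed the test (adjusted p = 0.00199) but not without WT IFN replicate 2 (-0.54, adjusted p = 0.0729). All 4 overlapping windows of this intron fell in treated USP18-/- cells, by -0.87 to -0.55, and the neighbour at 7655 bp had the largest difference between genotypes (-0.82, SE 0.20, adjusted p = 0.00227), which kept an adjusted p of at most 0.0395 with any library left out. The TYK2 promoter itself (172 bp upstream of the TSS, chr19:10380244-10381244) had 13.7 and 13.0 CPM in WT, 15.7 and 10.9 with IFNα, 16.2 and 12.6 in USP18-/- and 17.8 and 14.5 in USP18-/- with IFNα. Its groups overlapped and no comparison passed, the change with IFNα in USP18-/- cells being 0.17 (SE 0.16, adjusted p = 0.528).

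IFNAR2, the chain with which USP18 associates, had the highest mean level over the 8 libraries of all 52 regions, in a window outside its promoter. The window 13623 bp upstream of the TSS (chr21:33215772-33216772) is intergenic by the file's RefSeq annotation, while GENCODE release 44 places the start of IFNAR2 farther upstream, at position 33205282, and so has the window inside the gene. It had 50.1 and 54.3 CPM in WT, 49.9 and 45.9 CPM in WT with IFNα, 60.4 and 53.9 CPM in USP18-/- and 39.2 and 39.4 CPM in USP18-/- with IFNα. The treated USP18-/- libraries were again the lowest of the 8. The fall in USP18-/- cells was -0.54 (SE 0.10, adjusted p = 9.00e-06), against -0.12 (SE 0.10, adjusted p = 0.790) in WT cells.

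For this window the difference, -0.42 (SE 0.14, adjusted p = 0.0412), missed the threshold with 5 of the 8 libraries left out in turn (adjusted p up to 0.208) and with DESeq2 (0.0874). Its overlapping neighbour at 14137 bp gave -0.55 (SE 0.15, adjusted p = 0.00627), which did not pass without WT untreated replicate 1 (adjusted p = 0.0756). At the IFNAR2 promoter (chr21:33229395-33230395) levels ran from 12.5 to 18.8 CPM over the 8 libraries, with 17.2 and 18.5 CPM in USP18-/- and 17.5 and 18.8 CPM in USP18-/- with IFNα. None of the comparisons passed at this window (IFNα in USP18-/- cells 0.02, SE 0.14, adjusted p = 0.947), while the overlapping windows 399 and 752 bp downstream had more acetylation in untreated USP18-/- cells than in WT (log2 0.43 and 0.61, adjusted p = 0.0148 and 0.00229). Other genes had 6 tested windows within 50 kb of the IFNAR2 promoter window. With IFNα in USP18-/- cells 4 of them fell (11.2% of all regions) and 0 rose (13.0%) at an adjusted p below 0.05. The difference of the IFNα effects passed as lower in 2 (5.22%). These overlapping windows, 28660 and 28301 bp upstream of LINC01548, fell by -0.78 and -0.82 in USP18-/- cells.

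**Figure D4:**
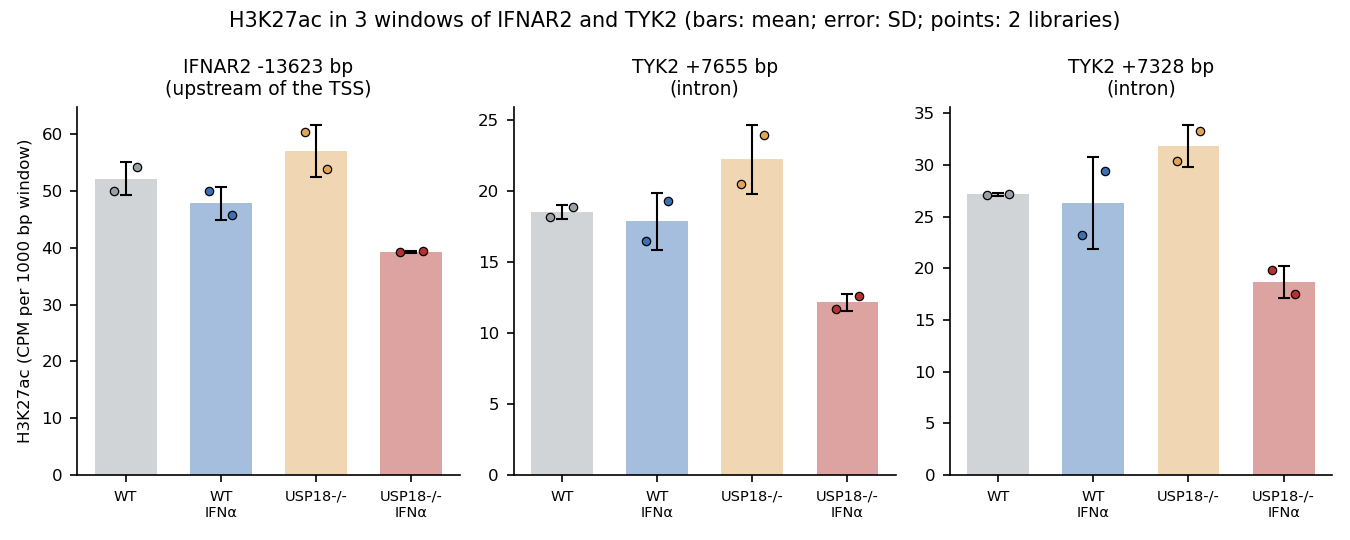
H3K27ac level in CPM in the IFNAR2 window 13623 bp upstream of the TSS and in 2 overlapping windows of the third TYK2 intron, by group, as means with SD and the 2 libraries, each panel with its own scale from 0. In all 3 windows the treated USP18-/- libraries are the lowest, at 39.3 CPM for IFNAR2 and 18.7 CPM for TYK2 at 7328 bp.

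IFNAR1, the chain that binds TYK2, had more promoter acetylation in USP18-/- cells. Its TSS window (chr21:33324409-33325409) had 21.2 and 22.5 CPM in WT, 23.3 and 20.6 CPM in WT with IFNα, 34.6 and 35.1 CPM in USP18-/- and 29.0 and 31.4 CPM in USP18-/- with IFNα. All 4 USP18-/- libraries exceeded all 4 WT libraries. Untreated, the ratio was 1.60 (log2 0.67, SE 0.12, adjusted p = 2.59e-06).

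With IFNα the IFNAR1 difference was 0.46 (SE 0.12, adjusted p = 0.00123), which scaling by the sum of counts reduced to 0.18 (adjusted p = 0.243). IFNα changed the window by 0.01 (SE 0.13, adjusted p = 0.993) in WT and by -0.21 (SE 0.12, adjusted p = 0.204) in USP18-/- cells, but with scaling by the sum of counts the latter passed the test (-0.34, adjusted p = 0.0161). The overlapping windows 465 bp upstream and 485 bp downstream were higher in untreated USP18-/- cells too (log2 0.73 and 0.82, adjusted p = 3.55e-06 and 5.29e-05). Over the 22660 tested regions within 1 kb of any TSS, the median log2 difference of untreated USP18-/- against WT cells was 0.34 and 41.5% were higher at an adjusted p below 0.05, so that a higher promoter level in USP18-/- cells was common.

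In the order of promoter levels, IFNAR1 led in untreated WT cells (21.8 CPM, SD 0.941, n = 2), followed by STAT2 (16.6, SD 0.767), IFNAR2 (14.2, SD 2.32), IRF9 (13.5, SD 1.23), TYK2 (13.4, SD 0.538) and the downstream start of JAK1 (5.44, SD 0.634). IFNAR2, IRF9 and TYK2 lay within their spread of each other. With IFNα in USP18-/- cells IRF9 led (98.4 CPM, SD 10.1), then STAT2 (51.0, SD 4.17) and IFNAR1 (30.2, SD 1.65), and IFNAR2 (18.1, SD 0.914) and TYK2 (16.1, SD 2.39) overlapped. The downstream start of JAK1 was again last (6.15, SD 0.465). The JAK1 window 441 bp inside the upstream start was not ranked. It had 9.10 CPM (SD 0.422) in untreated WT and 19.6 CPM (SD 4.26) in treated USP18-/- cells, where it overlapped IFNAR2 and TYK2.

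The genotypes differed elsewhere along these genes. In untreated cells 1 of the 52 regions was more than 2-fold higher in USP18-/- cells (background 5.66%) and 3 were lower (10.8%), and at any size 11 were higher (16.9%) and 7 lower (16.8%). With IFNα the counts were 6 higher (11.3%) and 6 lower (13.4%), and 12 (21.3%) and 13 (19.4%) at any size. Medians over the 52 were 0.10 untreated and -0.26 with IFNα, beside -0.02 and 0.00 over all regions tested.

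The clearest of these lay upstream of JAK1. The intergenic window 29539 bp upstream (chr1:65096785-65097785) had 20.8 and 17.9 CPM in WT, 15.7 and 16.2 CPM in WT with IFNα, 4.63 and 5.58 CPM in USP18-/- and 3.99 and 3.38 CPM in USP18-/- with IFNα. The genotypes did not overlap. The log2 difference was -1.92 (SE 0.18, adjusted p = 1.93e-15) untreated and -2.10 (SE 0.20, adjusted p = 4.80e-16) with IFNα, and the change with IFNα did not pass in either genotype.

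The overlapping window at 29883 bp and a separate window 16517 bp upstream of JAK1 were also lower in untreated USP18-/- cells (-1.82 and -1.50). Tested regions within 5 Mb of JAK1, its own excluded, had a median of -0.52 in the same comparison, so the surroundings of JAK1 also had less acetylation in USP18-/- cells. Inside the gene, the intronic window 33138 bp downstream of the downstream start was higher in untreated USP18-/- cells, with 8.12 and 8.95 CPM against 4.44 and 3.90 in WT (log2 1.03, SE 0.22, adjusted p = 6.33e-05). Overlapping windows at 9365 and 9667 bp were lower in USP18-/- than in WT cells with IFNα (-1.04 and -1.01), where 11.6 and 12.3 CPM in WT IFN replicate 1 stood above 7.18 and 7.69 CPM in replicate 2. Without that replicate their adjusted p was 0.0517 and 0.0559.

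At the receptor genes, the windows 14330 to 15079 bp inside IFNAR2 were lower in untreated USP18-/- cells (-0.73, -0.70 and -0.59). The window 15824 bp upstream of IFNAR1, intergenic by the file's annotation, had 5.27 and 4.63 CPM in WT, 3.86 and 3.69 in WT with IFNα, 3.32 and 2.60 in USP18-/- and 1.95 and 1.13 in USP18-/- with IFNα. It was lower in USP18-/- than in WT cells after IFNα (log2 -1.28, SE 0.32, adjusted p = 0.000553). Windows of low level were called higher in USP18-/- cells with IFNα at 22883 bp inside IFNAR1 (1.07 and 2.44 CPM against 0.59 and 0.82 in WT, log2 1.29, SE 0.52, adjusted p = 0.0372) and 10307 bp upstream of TYK2 (1.78 and 1.22 CPM against 0.30 and 0.62, log2 1.70, SE 0.58, adjusted p = 0.0121). The former no longer passed without WT IFN replicate 1 (adjusted p = 0.207), WT IFN replicate 2 (0.0789) or USP18-/- IFN replicate 2 (0.550), the latter without WT IFN replicate 1 (0.144) or USP18-/- IFN replicate 1 (0.164).

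**Figure D5:**
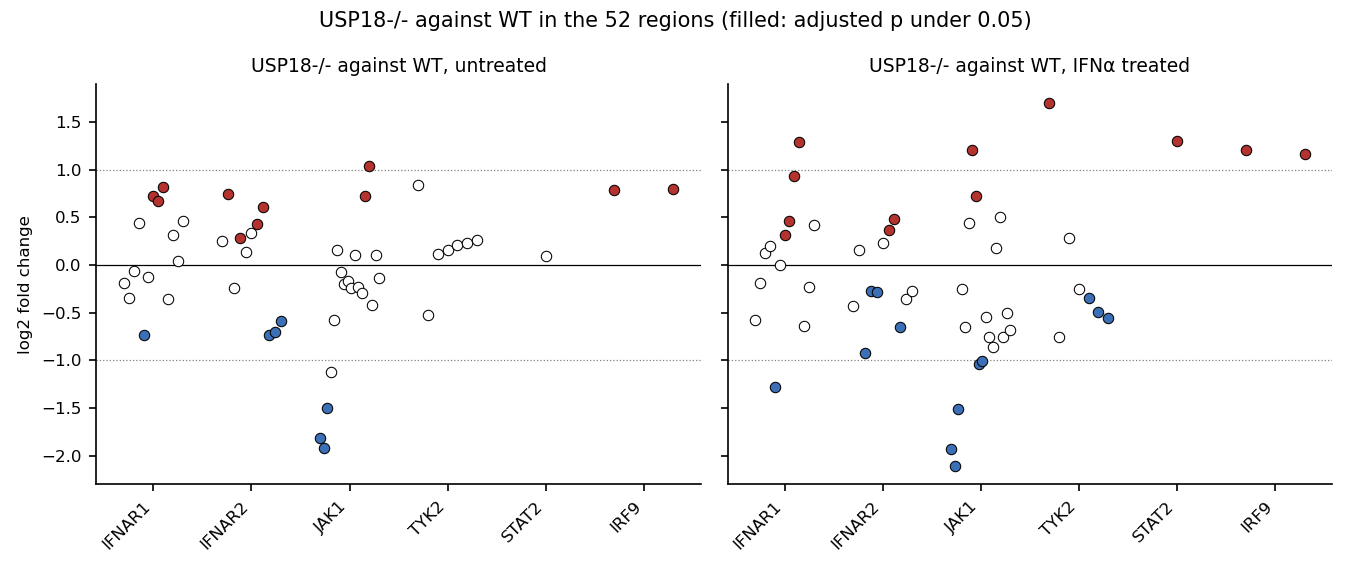
Log2 fold change of USP18-/- against WT cells, untreated and with IFNα, for each of the 52 regions, grouped by gene and ordered from upstream to downstream; filled points have an adjusted p below 0.05 and dotted lines mark 2-fold. The lowest points are the 2 windows near 29539 bp upstream of JAK1, the IFNAR1 promoter windows lie above 0 in both panels, and STAT2 lies near 0 untreated and at 1.29 with IFNα.

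Related receptors, kinases and STATs gave a comparison. The 11 genes IFNGR1, IFNGR2, IL10RB, IFNLR1, JAK2, JAK3, STAT3, STAT4, STAT5A, STAT5B and STAT6 had 78 tested regions within the same distance, of which IFNα raised 0 and lowered 0 by more than 2-fold in WT cells (0.344% and 0.0381% of all regions) and raised 6 and lowered 1 in USP18-/- cells (7.14% and 4.28%). These counts are near or below the background. Of their 10 TSS windows, none passed in WT cells at any size, and 3 rose and 1 fell in USP18-/- cells; of all regions within 1 kb of a TSS, 0.887% were higher with IFNα in WT and 18.3% in USP18-/- cells. STAT3, which serves cytokines of the IL-6 family, had 24.8 and 21.6 CPM in WT, 24.1 and 20.1 in WT with IFNα, 18.9 and 21.8 in USP18-/- and 51.7 and 43.6 in USP18-/- with IFNα.

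That pattern of STAT3, with a rise that passed the test in USP18-/- cells and not in WT, was like that of STAT2 (IFNα in USP18-/- cells log2 1.23, SE 0.12, adjusted p = 9.23e-15, and difference 1.30, SE 0.18, adjusted p = 1.45e-08). In WT cells IFNα changed STAT3 by -0.07 (SE 0.13, adjusted p = 0.938) and STAT2 by 0.33 (SE 0.13, adjusted p = 0.385). JAK2, the kinase of the IFN-γ receptor and of many cytokine receptors, rose by 0.69 (SE 0.08) and STAT6, the IL-4 signal carrier, by 0.63 (SE 0.09) in USP18-/- cells, with differences between genotypes of 0.64 (adjusted p = 4.57e-06) and 0.49 (adjusted p = 0.00369), both under 2-fold. IFNGR2, a chain of the IFN-γ receptor, changed by -0.36 in the same cells (SE 0.10, adjusted p = 0.00266). JAK3, the kinase of the common gamma chain, was lower in USP18-/- cells irrespective of IFNα, with 1.57 and 1.73 CPM against 10.3 and 9.53 in untreated WT (log2 -2.58, SE 0.26, adjusted p = 2.53e-14).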

How the data were processed

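The 6 genes, the related genes, the marker lists and the motifs were chosen with earlier results of these data known. Per the labels and the study's methods, the authors mapped reads to hg38 with Bowtie2, merged ATAC-seq peaks, and with HOMER counted H3K27ac tags in windows of 1000 bp at each peak; the deposited values are unnormalised estimated counts in steps of 0.5, of which 52.2% are whole. The table has no column of the authors' own comparisons. Library totals in the windows ranged from 9046141 to 12935454 tags, and the common coefficient of variation between replicates was 0.0737, so low windows are the least precise.

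Counts were rounded and tested with edgeR 4.0.16 in R 4.3.3 (quasi-likelihood, TMM factors, 4 group means over all 8 libraries), after removing regions that did not reach 10 counts in 2 or more libraries. SE values were taken from the fold change and the F statistic. The 5 comparisons were IFNα in each genotype, USP18-/- against WT with and without IFNα, and the difference of the IFNα effects. Calls required an adjusted p below 0.05 and a change of more than 2-fold. On data simulated for IFNα in USP18-/- cells over 60000 regions, the test recovered 165 of 200 changed regions with 5 false calls. In the measured data the same comparison called 8797 regions higher and 5278 lower out of 123276. Performance of the test with that many called regions was not tested. Named in full were, for each gene, the window nearest the TSS, the window of highest mean and, in each comparison, the called window with the largest rise and fall; the others are named as members of the set. The alternatives were other scalings, DESeq2 1.42.0, no filter, 2 groups only, a replicate block, each library left out, a 1.5-fold threshold and unrounded values. The last of these and the medians within 5 Mb were chosen after seeing the data. Sequences and gene annotation were read from hg38 and GENCODE release 44. The 8 input libraries were not used here. Some genes of the lists are not reported here.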

Additional observations from a re-analysis of the deposited data

Results flagged for a closer look

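The IFNα effect differed between USP18-/- and WT cells, by the test of the difference itself (edgeR, adjusted p below 0.05), in 9 of the 52 regions. By the same test 6.84% of all tested regions were higher and 5.22% lower. The 3 regions above 0 lay in 2 separate stretches of DNA and the 6 below 0 in 3. Differences are given as USP18-/- minus WT on the log2 scale. Those above 0 were JAK1 441 bp inside its upstream start (1.27), the overlapping JAK1 window at 882 bp (0.93) and STAT2 32 bp upstream of its TSS (1.20). Those below 0 were IFNAR2 14137 bp upstream (-0.55) and its overlapping window at 13623 bp (-0.42), the JAK1 intronic window at 9365 bp (-0.87), and the overlapping windows of TYK2 intron 3 at 7655 bp (-0.82), 7328 bp (-0.72) and 6971 bp (-0.56). The JAK1 window at 9365 bp no longer passed in 7 of the 8 fits that left out 1 library and with DESeq2 (adjusted p = 0.172), and without WT IFN replicate 1 its difference was -0.48 (adjusted p = 0.475). The TYK2 window at 6971 bp no longer passed in 4 of these 8 fits, and without WT IFN replicate 2 its difference was -0.31 (adjusted p = 0.414). STAT2, JAK1 at 441 bp and TYK2 at 7655 bp passed in all 8. With 2 libraries a group, single libraries were not screened for outliers.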

How the results depend on the processing

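Each count of the 52 regions past 2-fold was recomputed under every alternative. Scaling by the sum of counts gave 2 regions lower with IFNα in USP18-/- cells, 0 higher in untreated USP18-/- cells, 2 higher in USP18-/- cells with IFNα, and 1 with a lower IFNα effect in USP18-/- cells. Over all 123276 tested regions this scaling gave 7898, 4957, 8757 and 4779 in the same order, beside 5278, 6983, 13913 and 3093 with TMM. Scaling by the tag totals of whole libraries gave 1 lower with IFNα in USP18-/- cells and 0 higher in untreated USP18-/- cells. Over all tested regions it gave 6521 and 6136, beside 5278 and 6983 with TMM. A 1.5-fold threshold gave 5 lower with IFNα in USP18-/- cells, 9 higher and 7 lower in untreated USP18-/- cells, and 3 with a lower IFNα effect. This threshold admits more by its construction, and shares over all regions were not computed for it. Leaving out 1 library also moved the counts lower with IFNα in USP18-/- cells, higher in untreated USP18-/- cells and with a lower IFNα effect. Such a fit leaves 1 library in a group. The cause of the shifts with scaling or a library was not tested. The other counts stayed within 1.5 times.

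Among 62 effects at single regions, recomputed in 724 fits, 669 kept their direction and side of the threshold, 50 lost it, 36 of them when 1 library was left out, 5 gained it and 0 reversed. Same-numbered libraries showed little shared deviation over all regions (correlations of -0.00 to 0.05). Counting noise in low windows can hide such a pattern, so this does not exclude that the numbers pair the samples. With a replicate block 4 of the 52 regions rose by more than 2-fold with IFNα in USP18-/- cells. In USP18-/- against WT cells with IFNα 5 were lower. Over all 123276 tested regions the block gave 8791 and 16485 in the same order, beside 8797 and 16511 without it. Over all regions the sum of counts changed the calls with IFNα in USP18-/- against WT cells from 13913 higher and 16511 lower to 8757 and 24180. Windows below about 2 CPM rest on few tags.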
